A study of Mus musculus with 48 samples.

Results

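Engrafted liver spheroids were compared with spheroids kept in vitro, over genes that the iris hardly contributes to. The genes were chosen by their measured levels in transcripts scaled to library and gene length (TPM): the mean iris level had to be under 10% of the higher of the mean liver and mean in vitro spheroid levels. This rule was met by 3026 of the 25509 genes above 0 in livers or spheroids, out of 46517 genes counted. They are called low-iris genes here, and 1627 of them had a mean of at least 1 TPM over explants and spheroids and were tested. Just inside the limit were Csad (91.2 TPM in the iris and 918 TPM in spheroids) and Khk (113 and 1139 TPM), and just outside it was Gamt (56.3 TPM in the iris and 563 TPM in liver). The limit leaves out Alb, Ttr, Apoa1 and Trf, whose iris level was above it.

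The explants, numbered 1, 2, 4, 5 and 6, were taken from the anterior chamber of the eye 2 months post-tx and each held engrafted liver spheroids with the iris around them. The in vitro spheroids (n = 2) were formed from the same kind of cell, primary hepatocyte-enriched preparations (n = 3), and whole livers (n = 3) and naïve irises (n = 3) were the references. All 16 samples are labelled C57BL/6N, WT Albino, from adult mice, and each was sequenced as 3 technical libraries. The spheroids were formed and kept in medium with insulin and dexamethasone, according to the study's methods, which do not list this strain among the animals used. Which donors or recipients lay behind each sample is not given in the sources used here, so p-values measure the spread between these samples, which may be technical. The iris share of each explant, 82, 68, 81, 72 and 59% in order of number, was subtracted and the remainder scaled to 100%, so that the values of explants 1 and 4 were multiplied by 5.56 and 5.26. Total counts were 5449589 to 6789648 per explant and 3247327 and 3447643 for the spheroids. The label was checked on hepatocyte markers. Hnf4a, a nuclear receptor that defines hepatocytes, was at 96.2 to 139 TPM in the explants and at 203 and 229 TPM in the spheroids. Cps1 also had a lower mean in explants (872 against 1058 TPM). The explant means of Alb, Ttr, Apoa1, Trf, Asgr1 and Serpina1a were higher than those of the spheroids. All of these but Asgr1 were highest in explants 1 and 4, whose values were multiplied most. Asgr1 was lowest in explant 1. Mean Alb was 5713 TPM in explants, 3792 TPM in spheroids and 3222 TPM in livers. The part of the subtraction in these levels was not tested. Asgr1 was at 699 to 988 TPM against 571 and 736 TPM, and Serpina1a at 279 to 420 TPM against 254 and 271 TPM.

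Hepatocytes taken out of the liver are known to lose much of their specialised expression in culture, above all enzymes of drug, amino acid and steroid metabolism. In the liver these enzymes are spread unevenly along the lobule, with periportal cells making urea and glucose and pericentral cells carrying much of the cytochrome P450. Part of the program also follows hormones, such as the pulses of growth hormone that set male-biased genes.

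Of the low-iris genes, 332 were called lower in spheroids than in livers and are called culture losses, and 96 were called higher and are called culture gains (edgeR, adjusted p under 0.05 and more than a doubling). Over all genes tested the calls were 11% lower and 8.24% higher. After engraftment, 67 of the 332 losses were called higher in explants than in spheroids (20.2%), against 5% of all genes tested. A further 88 losses were higher by more than 1 on the log2 scale without passing the test, 144 were within 1 log2 unit, 17 were lower by more than 1 and 0 were called lower by limma. Among the losses 4 were lower at an unadjusted p under 0.05, and edgeR with an offset for the iris called 1 lower. Of the 332 losses, 62 were not called lower in spheroids than in hepatocyte preparations, and 8 of the 67 recovered losses were among these. They included Igkc and Nkg7, with means of 8.88 and 1.4 TPM in the preparations and 260 and 38.7 TPM in livers. For such genes the name culture loss does not show a loss during culture. Of the 96 gains, 33 were called lower in explants (34.4%), against 0.957% of all genes tested and 3.01% of the low-iris genes tested. At an unadjusted p under 0.05, 62 gains were lower. The losses, the gains and both of these comparisons share the spheroid samples, so a spheroid value that is low by chance makes a loss and its recovery alike. In the same way a spheroid value that is high by chance makes a gain and its reversal. A gain also met the iris limit through its spheroid level. The shares called are therefore not independent of how losses and gains were chosen. Only losses were split between the spheroids. With losses called on spheroid 1 alone and explants compared with spheroid 2 alone, the median difference over 322 losses was 0.56 and 18 were called higher, and with the samples exchanged it was 1.45 over 241 losses with 23 called. Those values were chosen after seeing the data. The median over all 316 losses tested was 0.99, against 0.25 over the low-iris genes and 0.54 over all genes tested.

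**Figure D1:**
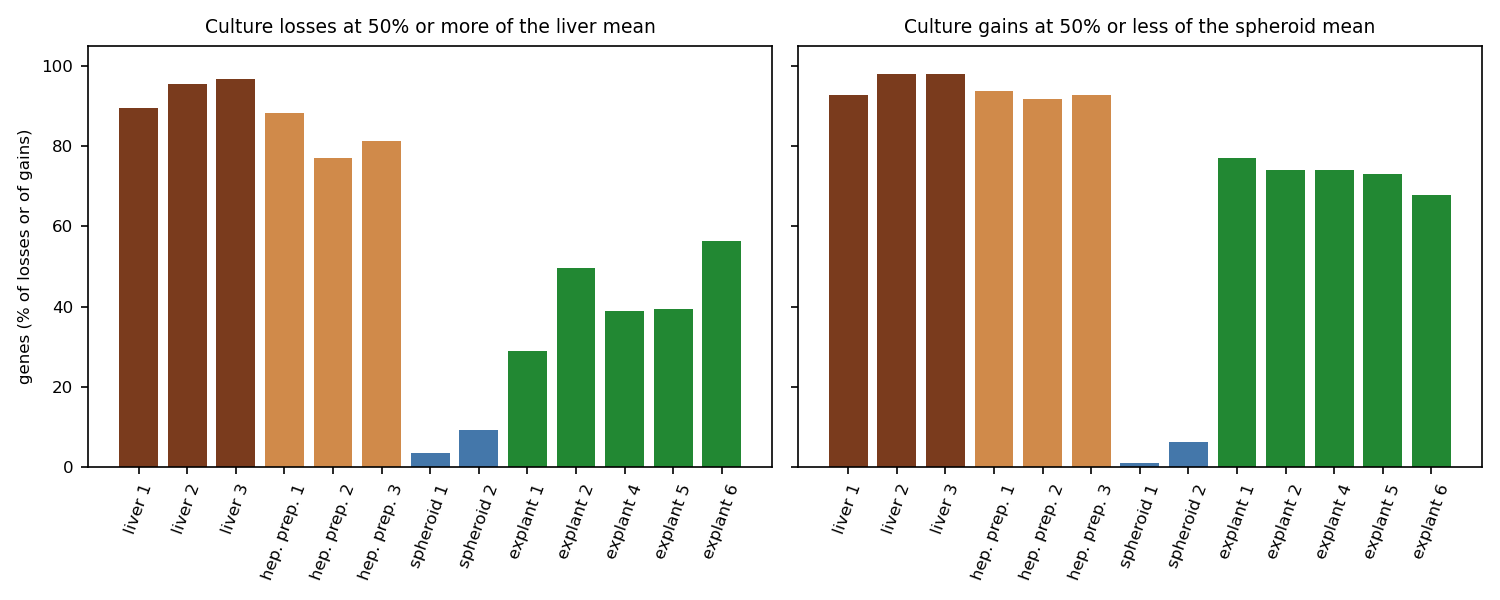
Percent of the 332 culture losses at 50% or more of the mean liver TPM in each sample (left), and percent of the 96 culture gains at 50% or less of the mean spheroid TPM (right). Explants lie between spheroids and livers on the left, from 28.9 to 56.3%, and between 67.7 and 77.1% on the right. Gains were chosen as high in these spheroids and low in these livers, so both ends on the right were set by the choice.

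In no explant did the losses reach the share seen in livers. The share of losses at 50% or more of the mean liver level was 28.9, 49.7, 38.9, 39.5 and 56.3% in explants 1, 2, 4, 5 and 6, but 3.61 and 9.34% in the spheroids, 77.1 to 88.3% in the hepatocyte preparations and 89.5 to 96.7% in the livers. The explant with the highest iris share had the lowest value and the one with the lowest iris share the highest; the part of the subtraction in this order was not tested. On the log2 scale a loss regained a median of 48.8% of its distance to the liver, with quartiles at 16.1 and 73.1%. Losses were chosen as low in these spheroids and high in these livers. Both ends of the shares and of this distance were thus set by the choice, which favours a place between them for any other group. Losses were also called against the hepatocyte preparations, a test that shares no sample with the comparison of explants and livers. The low-iris limit itself used the liver mean, so a gene low in spheroids met it through its liver level. This set is therefore not independent of the livers. There were 369 such losses among the low-iris genes, where 9.11% of all genes tested were called lower. Of the 369, 100 were called lower in explants than in livers, against 3.01% of all genes tested. Among low-iris genes tested against both spheroids and livers, 154 of 1523 were called lower than in livers. The median difference of the 369 from the liver was -1.01. The count of 100 fell to 26 without liver 2 and to 20 without liver 3. Of the 67 recovered losses, 6 were lower and 4 higher in explants than in livers, where 11.8% of all genes tested were called higher, and the median difference of the other 265 losses from the liver was -1.34.

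Of the 12 lists plotted by list, the pericentral genes had the highest median difference. Of the 30 genes of that list 12 were low-iris and 10 of these were tested. Among these 10, 6 passed the test with higher values in explants and 0 with lower ones. Their median difference was 3.38 on the log2 scale. At an unadjusted p under 0.05, 7 were higher and 2 lower by limma. EdgeR with an offset called 7 higher and 1 lower. Of all low-iris genes tested, 5.41% passed with higher values and 3.01% with lower ones. Cyp2e1, which oxidises ethanol and paracetamol, was at 1272, 1179, 4486, 1728 and 1400.4 TPM in the explants, 152 and 137 TPM in the spheroids and 2110.3 to 2709 TPM in the livers. Explants and spheroids did not overlap, and explant 4 was far above the other four (log2 difference 3.59 ± 0.48 SE, adjusted p = 0.00572). Rgn, a calcium-binding lactonase of vitamin C synthesis, was at 733, 853, 1586, 851 and 883 TPM against 36 and 42.1 TPM (4.56 ± 0.30, adjusted p = 4.43e-04). Gulo, the next enzyme of that pathway, was at 513 to 1079.6 TPM against 53 and 144 TPM. Lect2, a secreted chemotactic protein and known Wnt target, was at 581 to 1182 TPM against 21.7 and 50.5 TPM. Not every pericentral gene followed: Cyp1a2 (172 to 364 TPM in explants, 375 and 582 TPM in spheroids) and Cyp2c29 (81.8 to 507 TPM, 813 and 969.6 TPM) were not called, and neither was a culture loss. Rhbg, an ammonium transporter, was at 8.68 to 93 TPM against 2.35 and 0.831 TPM and missed the threshold (adjusted p = 0.0602).

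Among periportal genes 5 of 21 tested were called higher, against 5.41% of low-iris genes tested, and 0 lower, with a median of 0.37. At an unadjusted p under 0.05, 7 were higher and 2 lower by limma. Hsd17b6, a steroid dehydrogenase, was at 389, 389, 438, 521 and 482 TPM in the explants and at 2.18 and 2.89 TPM in the spheroids, while livers ranged from 149.7 to 774 TPM. The difference was 6.97 ± 0.27 on the log2 scale (adjusted p = 7.74e-05), and explants and spheroids did not overlap. Otc, the urea cycle enzyme that makes citrulline, was at 263 to 370.3 TPM against 68.7 and 90.2 TPM (1.93 ± 0.24, adjusted p = 0.00448). Uroc1 of histidine breakdown and Pigr, the receptor that carries IgA into bile, were called as well. Gls2, Hal, Sds and Pck1, which supply ammonia, break down amino acids and make glucose, were losses that were not called. Sds was at 12.3, 207, 6.35, 10.9 and 17.3 TPM in the explants and 79.4 and 6.65 TPM in the spheroids, so that the groups overlapped and explant 2 stood apart. Of the 9 tested genes of the urea cycle list, 7 were losses and 1, Otc, was called higher.

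**Figure D2:**
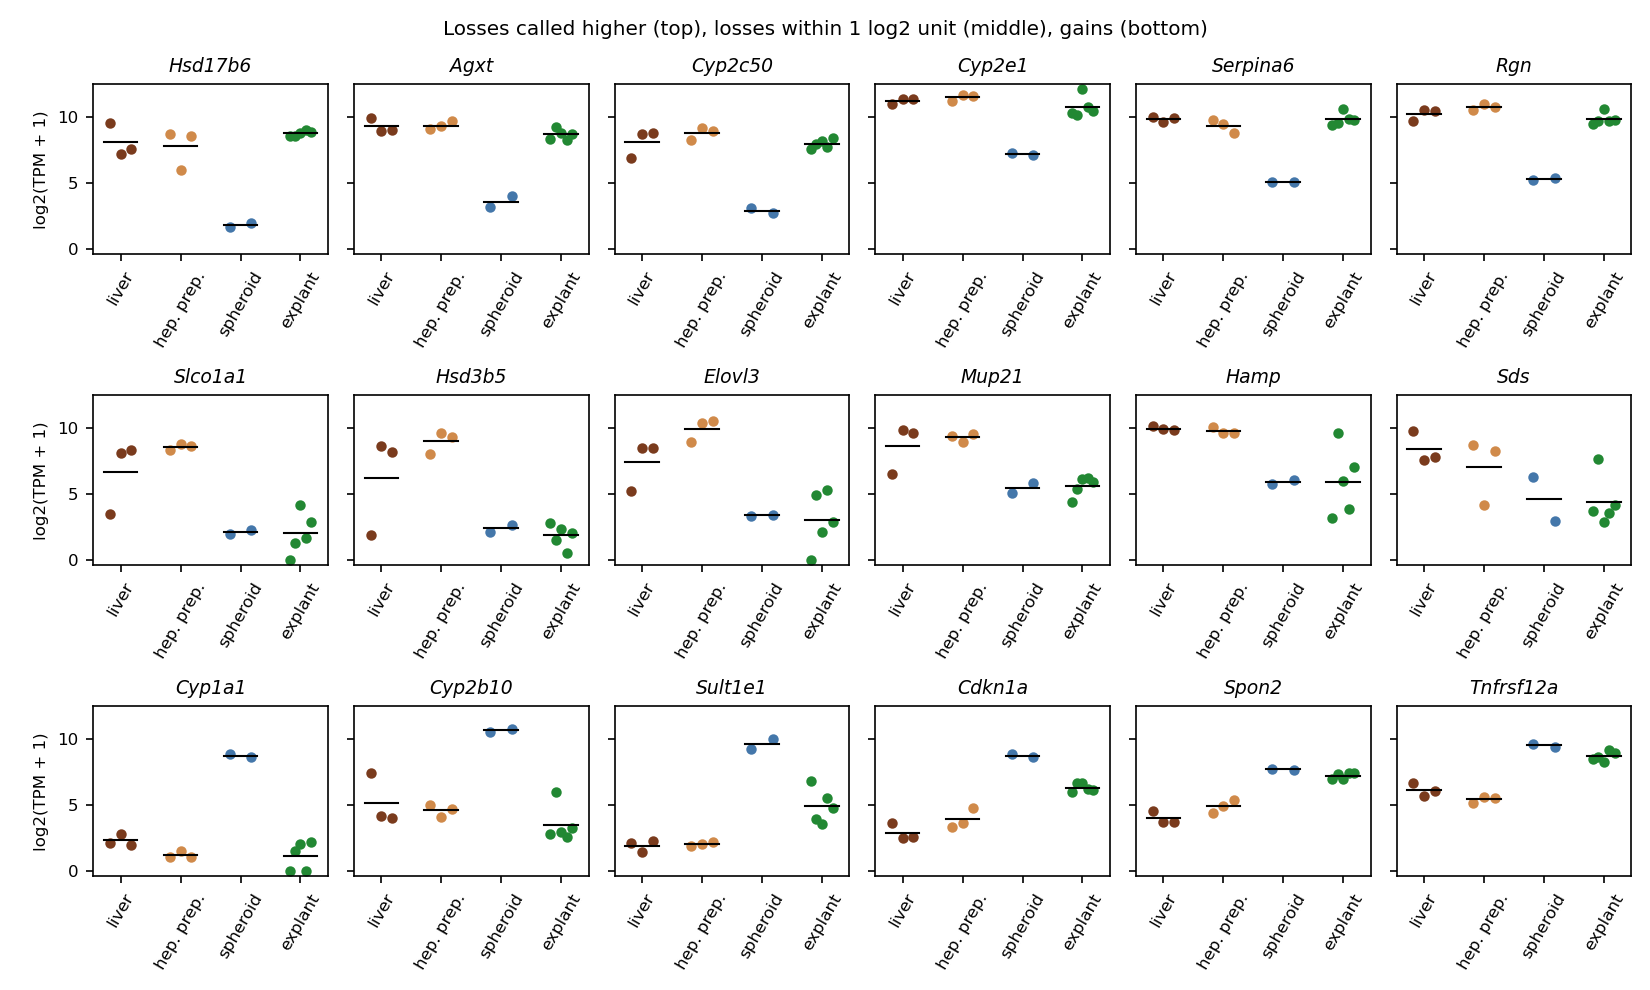
Levels of 18 low-iris genes as log2(TPM + 1) in livers, hepatocyte preparations, spheroids and explants. Points are samples and bars the group means. In the top row the explants lie near the livers, in the middle row they lie near the spheroids, with single high explants for Hamp and Sds, and in the bottom row the first 4 gains are lower in explants than in spheroids.

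Agxt, the peroxisomal enzyme that removes glyoxylate, was at 330.4, 632, 458, 309 and 419.9 TPM against 8.06 and 15.2 TPM in spheroids and 506 to 979 TPM in livers (5.11 ± 0.37, adjusted p = 4.47e-04). In its list of amino acid catabolism 5 of 31 tested genes were called higher and 1 lower, against 5.41 and 3.01% of low-iris genes tested. Of its 14 losses 4 were recovered, against 20.2% of all losses. Serpina6, which carries corticosteroids in plasma, was at 695, 781, 1627, 942 and 911 TPM against 32.4 and 32.9 TPM (4.82 ± 0.32, adjusted p = 4.43e-04), and its livers held 809 to 1058 TPM. Alas2, the haem synthesis enzyme of red cells, was at 29.6 to 109 TPM against 2.21 and 3.01 TPM. The exons of Alas2 overlap those of Mir3620 and Apex2, and reads there were counted for each, so Mir3620 (9.63 to 83.3 TPM against 0 and 0) is not a separate observation.

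The cytochrome P450 and phase I list moved in both directions. Of 41 tested genes 8 were called higher and 3 lower, against 5.41 and 3.01% of low-iris genes tested. Of its 17 losses 8 were recovered, against 20.2% of all losses. Cyp2c50 was at 191, 256, 292, 215 and 341 TPM against 7.56 and 5.52 TPM (5.09 ± 0.33, adjusted p = 4.43e-04), and Cyp2c54 at 45.8 to 142 TPM against 1.29 and 2.73 TPM. Members of the Cyp2c family are similar in sequence, and how reads were split between them is uncertain. The carboxylesterase Ces3a, which hydrolyses lipids and drugs, was at 328 to 1776 TPM against 25.1 and 27.8 TPM. Ces1f was called higher (59.8 to 186 TPM against 6.71 and 9.06 TPM) but was also called lower in explants than in livers, where it was at 366 to 666 TPM.

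Complement genes, which hepatocytes secrete into plasma, were called higher in 4 of 16 cases and lower in 0, against 5.41 and 3.01% of low-iris genes. At an unadjusted p under 0.05, 9 were higher and 2 lower by limma. C8a was at 438, 499, 622, 578 and 558 TPM against 33.5 and 36.1 TPM (3.91 ± 0.22, adjusted p = 3.40e-04). C9 was at 331 to 564 TPM against 40.3 and 57.1 TPM. Both belong to the complex that opens pores in membranes, and both overlapped with the livers. C3, the central component, was no loss and was called higher (1795 to 2675 TPM against 881 and 1183 TPM). Of 18 coagulation genes 0 were called by limma in either direction and 1 was a loss, with 7 higher and 2 lower at an unadjusted p under 0.05 and 1 called lower by edgeR with an offset.

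**Figure D3:**
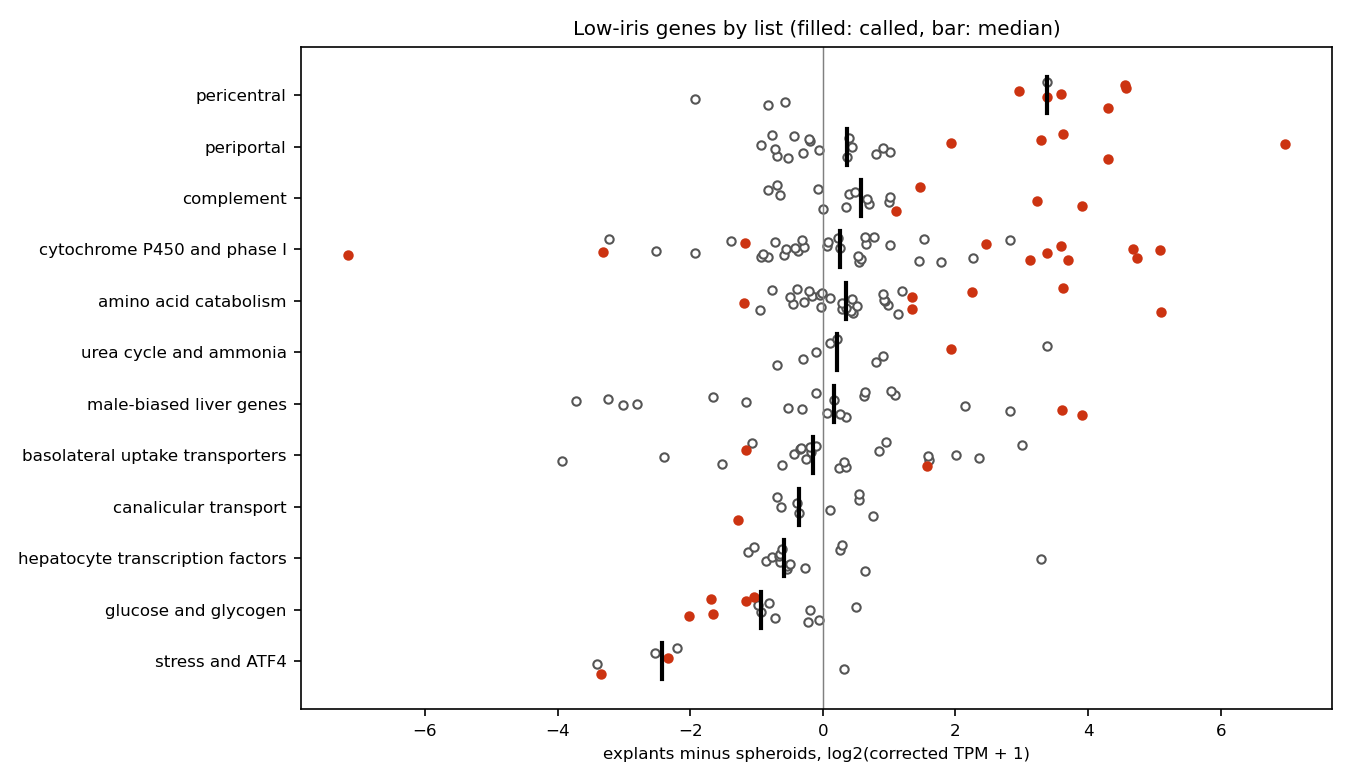
Difference between explants and spheroids on the log2(corrected TPM + 1) scale for the tested low-iris genes of 12 lists. Filled points passed the test, open points did not, and black bars are medians, which run from 3.38 for pericentral genes to -2.43 for stress and ATF4 genes. The stress and ATF4 genes drawn were all culture gains, chosen as high in these spheroids.

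Male-biased liver genes were lost in culture in 13 of 21 cases and called higher in explants in 2, Cyp4a12b and C8a, while edgeR with an offset called 6 higher. These 2 were among the 13 losses, where 20.2% of all losses were recovered. Cyp4a12b was at 14.3 to 25.1 TPM in the other explants but at 101.9 TPM in explant 4, against 1.27 and 1.01 TPM in spheroids, and its call was lost in 10 of 23 settings, among them those without explant 1, 2 or 5 or without either spheroid. Slco1a1, an organic anion transporter, was at 0, 1.5, 17.4, 2.16 and 6.45 TPM in explants and at 2.88 and 3.81 TPM in spheroids, and the groups overlapped (-0.10 ± 1.11, adjusted p = 0.962). Hsd3b5, a steroid reductase, was at 0.44 to 6.1 TPM in explants and 3.44 and 5.2 TPM in spheroids. Elovl3, which lengthens fatty acids, was at 0 to 38.7 TPM against 9.16 and 9.7 TPM, and Mup21, a urinary pheromone carrier, at 20.1 to 73.6 TPM against 32.6 and 57.1 TPM. These genes were also low in liver 1: Slco1a1 was at 10.2 TPM there and at 276 and 325 TPM in livers 2 and 3, and Hsd3b5 was at 2.7 TPM there and at 401 and 299.7 TPM. All 16 samples expressed the Y-linked gene Ddx3y, at 49.9 to 54.7 TPM in livers and 62.1 to 73.6 TPM in explants before correction, and Xist stayed under 1 TPM in each. The hepatocyte preparations held 321 to 443 TPM of Slco1a1 and 267 to 790.0 TPM of Hsd3b5. Hamp, the hormone hepcidin that limits iron uptake, was at 7.95, 786, 62.4, 13.5 and 134 TPM in explants, 54.3 and 65.7 TPM in spheroids and 922 to 1175 TPM in livers. Elovl3, Nat8f5 and Paqr9 lay within 1 log2 unit after the subtraction, but were called higher, by 1.77, 2.66 and 1.61, by edgeR with an offset, which leaves the iris reads in place.

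Promoters are shown for a recovered loss, Hsd17b6, a loss that was not, Slco1a1, and the gains Cyp1a1 and Serpina5, as the 250 bases before the first listed start in RefSeq (GRCm38.p6), 5′ to 3′. Capitals mark a C/EBP motif. Hsd17b6 lies at chr10:128007612-128007861, minus strand, Slco1a1 at chr6:141946963-141947212, minus strand, Cyp1a1 at chr9:57697363-57697612, plus strand, and Serpina5 at chr12:104100863-104101112, plus strand.
Hsd17b6: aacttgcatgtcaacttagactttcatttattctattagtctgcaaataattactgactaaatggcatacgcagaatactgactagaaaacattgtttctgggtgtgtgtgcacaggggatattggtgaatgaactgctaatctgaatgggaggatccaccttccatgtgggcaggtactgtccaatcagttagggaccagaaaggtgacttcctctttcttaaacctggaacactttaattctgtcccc
Slco1a1: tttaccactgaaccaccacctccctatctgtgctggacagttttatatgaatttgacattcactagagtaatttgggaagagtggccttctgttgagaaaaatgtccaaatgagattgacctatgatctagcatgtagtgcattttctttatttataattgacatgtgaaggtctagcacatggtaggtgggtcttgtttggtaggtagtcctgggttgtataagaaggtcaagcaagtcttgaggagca
Cyp1a1: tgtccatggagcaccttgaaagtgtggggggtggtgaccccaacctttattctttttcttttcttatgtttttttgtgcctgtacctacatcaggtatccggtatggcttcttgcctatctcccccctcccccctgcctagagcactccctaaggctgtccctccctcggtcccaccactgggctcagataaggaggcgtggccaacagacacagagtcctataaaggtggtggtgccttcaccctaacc
Serpina5: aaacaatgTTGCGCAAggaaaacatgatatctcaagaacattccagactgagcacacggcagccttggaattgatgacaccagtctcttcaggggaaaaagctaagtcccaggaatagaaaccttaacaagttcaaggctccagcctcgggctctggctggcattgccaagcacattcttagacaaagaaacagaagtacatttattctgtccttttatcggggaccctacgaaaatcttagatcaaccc
Motifs were searched on both strands of 300 bases (250 before and 50 after the start) for 53 recovered and 181 other losses with a listed promoter. The HNF1 motif GTTAATNAT was in 2 and 4 of them (3.77 and 2.21%), against 0.94% of all 27025 genes with promoters. The HNF4A motif CAAAGTCCA was in 1 and 4 (0.555% of all), the PAR bZIP motif TTATGTAA in 2 and 5 (1.11% of all), the C/EBP motif TTGCGCAA in 0 and 1 (0.207% of all) and the xenobiotic response element TGCGTG in 1 and 13 (9.59% of all). Among gains with a listed promoter, 22 reversed and 45 not called lower, the HNF1 motif was in 2 and 4 (9.09 and 8.89%). The HNF4A motif was in 0 and 1 of these gains, the PAR bZIP motif in 0 and 2. The C/EBP motif was in 1 and 0, the xenobiotic response element in 2 and 3. These are descriptions of letters in a window.

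Uptake transporters were called higher about as often as all genes tested. Of 24 tested members 1 was called higher, Asgr2, a chain of the receptor for desialylated glycoproteins (352 to 416 TPM against 101 and 157 TPM), and 1, Slc2a2, was called lower. At an unadjusted p under 0.05, 6 were higher and 4 lower, and edgeR with an offset called 7 higher and 4 lower. Slco1b2 was at 205 to 619.6 TPM against 12.3 and 128 TPM and did not pass (adjusted p = 0.0679). Of 16 transcription factors 0 were called by limma, with 1 higher and 3 lower at an unadjusted p under 0.05 and 1 called higher by edgeR with an offset. Cebpa, a regulator of metabolic genes, was at 29.9 to 65 TPM in explants, 23.8 and 35.8 TPM in spheroids and 176 to 222 TPM in livers, and was called lower in explants than in livers. Ppara, the fatty acid sensor, was at 10.4 to 54.4 TPM against 30.1 and 51.4 TPM.

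Among culture gains the greatest falls included several metabolic enzymes. Cyp1a1, the classic target of the aryl hydrocarbon receptor, was at 463 and 398 TPM in spheroids and at 0, 1.82, 3.17, 0 and 3.65 TPM in explants, within the range of 3.02 to 6.18 TPM in livers or below it. It fell by 7.59 ± 0.82 on the log2 scale (adjusted p = 0.00243). Cyp2b10, the classic target of the receptor CAR, was at 1487 and 1798 TPM in spheroids and 5.9, 62.2, 6.76, 5.12 and 8.52 TPM in explants (-7.16 ± 0.88, adjusted p = 0.00405). Sult1e1, which inactivates oestrogens, was at 625 and 1027 TPM against 10.8 to 116 TPM, still above the 1.7 to 3.72 TPM of livers. Sult2a1 was at 85.7 and 37.1 TPM in spheroids, and its explants were at 0 to 2.96 TPM and together held 4 counts. Cyp17a1, a steroid hydroxylase and no gain, was at 440.5 and 694 TPM against 0.0438 to 17.7 TPM.

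Cdkn1a, the cell cycle inhibitor p21, was at 479 and 398 TPM in spheroids, 63.2 to 100.4 TPM in explants and 4.75 to 11.3 TPM in livers, and so was called lower than in spheroids and higher than in livers. Of the 20 genes of the stress and ATF4 list, 6 were low-iris and tested, and all 6 were gains. They met the iris limit through their spheroid level and were chosen as high in these spheroids, which favours a fall. Of the 6, 2 were called lower, against 3.01% of low-iris genes tested, with a median of -2.43. Asns, which makes asparagine, was at 367 and 424 TPM against 18.6 to 76.5 TPM, and the hormone Fgf21 at 306 and 246 TPM against 20.7 to 95.9 TPM. Atf3, of the same list, was at 62.2 to 191 TPM in explants and 135 and 60.9 TPM in spheroids, with overlap. Gains that were not called included Spon2 (123 to 172 TPM against 217 and 207 TPM) and Tnfrsf12a, the receptor of TWEAK (315 to 577 TPM against 803 and 686 TPM), and both were called higher in explants than in livers. In both genes every explant lay below both spheroids.

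Genes of glucose and glycogen metabolism were called in 1 direction. Of 13 tested 5 were called lower and 0 higher, against 3.01 and 5.41% of low-iris genes tested. At an unadjusted p under 0.05, 7 were lower. Slc2a2, the glucose transporter, was at 177 to 222 TPM against 406 and 506 TPM, and Slc37a4, which brings glucose 6-phosphate to its phosphatase, at 245 to 373 TPM against 804 and 1076 TPM (-1.69 ± 0.24, adjusted p = 0.00679). Gys2, the liver glycogen synthase, and Tkfc were also called lower.

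Interferon-induced genes and lymphocyte markers were among those with the greatest rise. Ubd, an interferon-induced modifier and no loss, was at 852, 429, 278, 662 and 1375 TPM in explants, 18 and 4.32 TPM in spheroids and 6.37 to 38.9 TPM in livers (5.95 ± 0.67, adjusted p = 0.00292). Cxcl9, a chemokine induced by interferon gamma, was at 153, 53.9, 11.3, 60.5 and 282 TPM, and Nkg7, of cytotoxic lymphocytes, at 66.3, 241, 17.5, 26 and 275 TPM. Igkc, the antibody kappa chain, was at 25.4 to 190.3 TPM and had 0 counts in both spheroids, so it was at least 19.9-fold higher at a floor of 3 counts in each spheroid. The 16 lymphocyte markers together held 160.1 to 932 TPM in explants, 3.36 and 4.27 TPM in spheroids, 233 to 718 TPM in livers and 38.2 to 53.1 TPM in irises, and 8 of them were at 0 in both spheroids. The 15 macrophage markers, 1 of them low-iris, together held 3622 to 7635 TPM in explants, 634 and 729 TPM in spheroids, 639.9 to 1849 TPM in livers and 1714 to 1861 TPM in irises. The part of these cells in the results was not tested. In such bulk samples a change in the number of cells and in RNA per cell cannot be told apart. The 7 tested low-iris Kupffer cell markers had a median difference of -2.81, and their median was negative in each explant. Of these 1 was called lower and 0 higher by limma, 4 were lower and 0 higher at an unadjusted p under 0.05, and edgeR with an offset called 4 lower. The marker called was Clec4f, which fell from 77.2 and 110.4 TPM in spheroids to 0 to 11.2 TPM in explants (-5.06 ± 1.08, adjusted p = 0.0325). That call was lost in 10 of 23 settings, among them those without explant 1 or 5, without either spheroid and with the deposited corrected TPM. With the 5 members outside the iris limit included, the 12 Kupffer cell markers summed to 1111 to 4060.0 TPM in explants and 998 and 1047 TPM in spheroids. Of the 7 tested low-iris sinusoidal endothelial markers 6 were losses, 0 were called in either direction by limma and 6 were called lower in explants than in livers. Their median difference from the spheroids was -1.32, with 1 higher and 1 lower at an unadjusted p under 0.05 and likewise 1 and 1 called by edgeR with an offset.

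**Figure D4:**
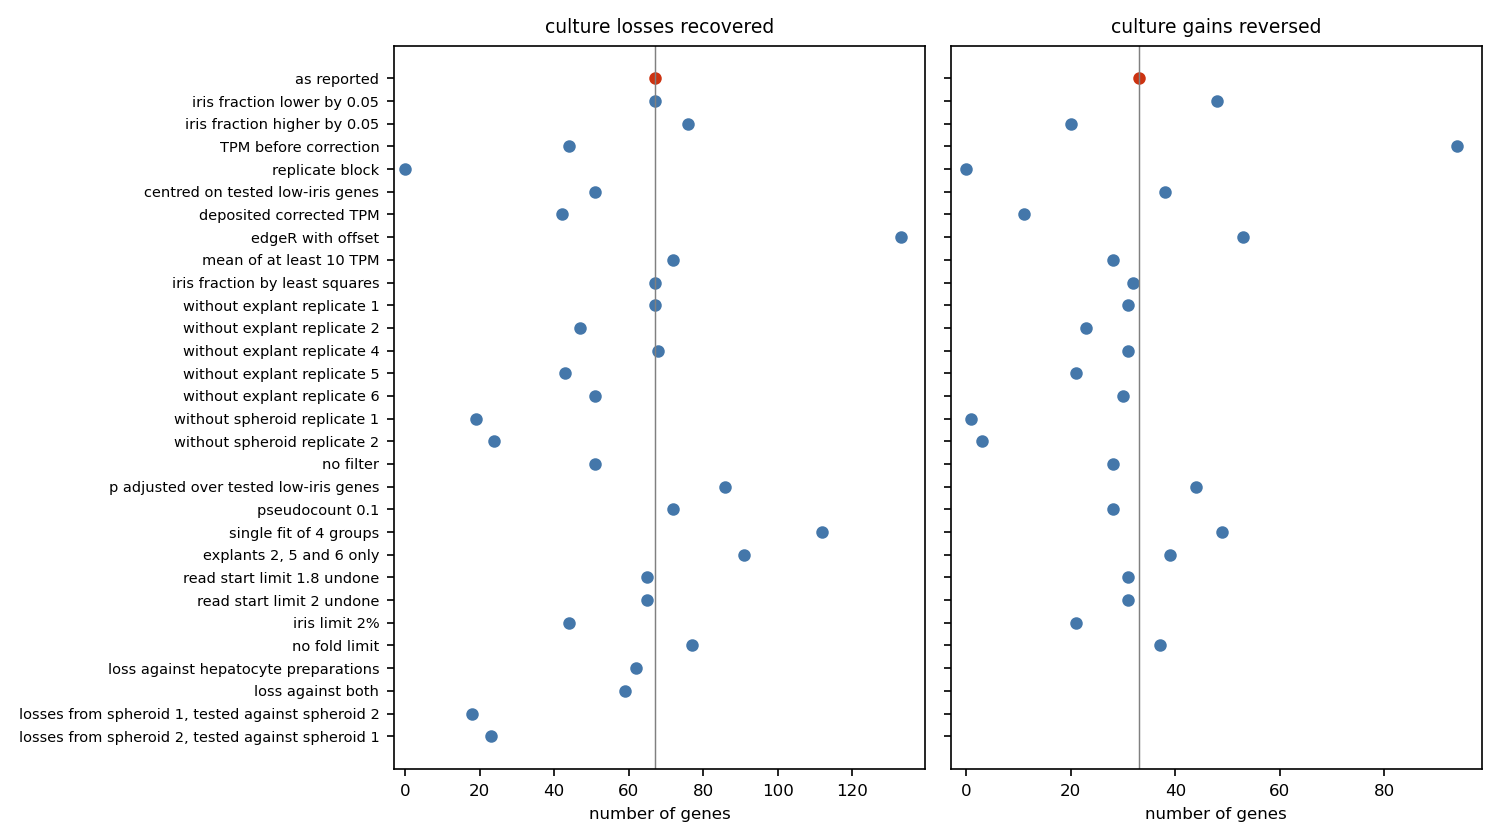
Number of culture losses recovered (left) and culture gains reversed (right) under each way of processing, with the line at the values reported, 67 and 33. Losses recovered run from 0 with the replicate block to 133 with edgeR and an offset, and gains reversed from 0 with the block to 94 with TPM before correction; the counts with no iris limit are not drawn.

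The counts rest on 2 spheroid samples. Without spheroid 1, 19 losses were called recovered and 1 gain reversed, and without spheroid 2 these were 24 and 3. Without explant 5 they were 43 and 21. The lone spheroid is then assumed to vary like the explants. Of the 30 named genes that were called, 23 lost the call without spheroid 1, 23 without spheroid 2 and all 30 with the replicate block, and none changed direction under these or the other alternatives. Clec4f, Cxcl9, Cyp4a12b, Mthfd2, Rgs16 and Serpina5 also lost it when 1 explant was left out, Mthfd2 with each of the 5.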

How the data were processed

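RNA of 16 samples, sequenced by the authors with Smart-seq3 as 3 technical libraries each (48 in all), was analysed. The authors aligned reads with TopHat2 to mm10, removed duplicates and counted reads per gene with featureCounts 1.4.6-p5, without strand and with every overlapping gene counted. These deposited counts were summed per sample. The deposited TPM equal TPM recalculated from the counts. In the deposited corrected values an iris contribution had been subtracted by the authors, and the column of explant 4 is not on the TPM scale and is treated as a score. The subtraction was therefore repeated for all explants as (TPM − F × mean iris TPM)/(1 − F), with negative values set to 0. Duplicate removal limits read starts per base, which compresses abundant genes.

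Spheroids were tested against livers and hepatocyte preparations with edgeR 4.0.16 (filterByExpr, TMM, quasi-likelihood), and explants against spheroids and livers with limma 3.58.1 (trend) on log2(TPM + 1), at a mean of at least 1 TPM, in R 4.3.3. Fold changes on this scale are understated for low genes. Calls needed a Benjamini-Hochberg adjusted p under 0.05 over all genes tested and an absolute log2 difference over 1. For edgeR with an offset for the iris, p was adjusted over the low-iris genes only. Its counts are thus at a different threshold from those of limma. All tests were two-sided. The limma test of explants against spheroids and the edgeR test of spheroids against livers were run on simulated data, the other comparisons were not. With limma, estimates were close to the truth but many true changes, falls above all, missed the threshold. The simulated mixtures held exactly the iris share that was then subtracted and no limit on read starts. They could therefore not show errors from a wrong share or from compression of abundant genes. A gene that was not called is therefore not shown to be unchanged, and the numbers of rises and falls are not comparable. The first pass mark of the simulated limma test, on the share of changes found, was not met and was replaced by limits on bias and false calls.

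Low-iris genes and gene lists were chosen with earlier results of these data known. Named genes (symbols of the form Gm and a number or ending in Rik left out) were the 12 highest and 12 lowest called differences without overlap at 10 TPM or more; among losses at 50 TPM or more in liver, the 10 lowest that were recovered and the 10 lowest that differed by under 1; the 6 highest gains of each kind at 50 TPM in spheroids; and members of lists. Alternatives were DESeq2 1.42.0, RLE factors, other subtractions, filters, pseudocounts, limits and samples, and a replicate block. Explants and spheroids share the numbers 1 and 2, but the deviations of same-numbered samples correlated at 0.126 and 0.036 over 2 pairs only, so the numbers were not taken as pairs. Reads were not analysed here, and single results for some list members are not reported here.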

Additional observations from a re-analysis of the deposited data

Results flagged for a closer look

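In 6 of the 46 named genes 1 explant lay far from the other four on the TPM scale (gap to the nearest over 0.71 of the range). This limit flags about 1 in 20 groups of normally spread values. TPM with zeros need not be spread so, and the count is not read as an excess. Explant 4 was high for Serpina6 (1627 TPM) and Cyp4a12b (101.9 TPM). Explant 2 was high for Cyp2b10 (62.2 TPM), Hamp (786 TPM) and Sds (207 TPM). Explant 6 was the only one with any Psg22 (0.469 TPM), from 1 count.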

How the results depend on the processing

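The count of losses recovered was 67 as reported, 44 with TPM before correction and 42 with the deposited corrected TPM. It was 133 with edgeR and an offset, where p was adjusted over low-iris genes only. With limma and p adjusted over the tested low-iris genes it was 86. It was 112 in a single fit of 4 groups, 44 at an iris limit of 2% and 247 with no iris limit. Explants called higher numbered 88 as reported, and 53, 174, 159, 55 and 1060 with the deposited corrected TPM, edgeR, the single fit, the 2% limit and no limit. Explants called lower numbered 49, and 91 and 25 with the iris fraction lower and higher by 0.05, 620 before correction, 14 with the deposited values, 100 with edgeR, 104 in the single fit, 32 at 2% and 203 with no limit. Gains reversed numbered 33, and 20 with the higher fraction, 94 before correction, 11 with the deposited values, 53 with edgeR, 21 at 2% and 58 with no limit. Losses against hepatocyte preparations that were lower in explants than in livers numbered 100, and 167 and 46 with the lower and higher fraction, 349 before correction and 45 with the deposited values. Before correction the iris dilutes every explant, and limits on iris share change how many genes are counted. For the others the cause was not tested.

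With the replicate block, limma called 0 higher, 0 lower, 0 recovered and 0 reversed, while 365 of 1627 low-iris genes had an unadjusted p under 0.05, 62 of the 67 recovered losses among them. The block left the counts of culture losses and gains within 1.5 times. Leaving out 1 sample gave 22 to 94 higher, 1 to 47 lower, 19 to 68 recovered, 1 to 31 reversed and 20 to 113 lower than in livers, and 241 to 366 losses, 71 to 120 gains and 271 to 404 losses against hepatocyte preparations. Losses split between the spheroids gave 18 and 23 recovered. Direction changed for Elovl3 (1.77), Nat8f5 (2.66) and Paqr9 (1.61) with edgeR and for Atf3 (-1.35) before correction; none had been called. Among the 16 named genes not called, the sign of the difference otherwise changed in 0 to 8 of 22 or 23 settings, and in 0 for Gls2, Spon2, Tnfrsf12a, Rrm2 and Tff3. With explants 2, 5 and 6 only, chosen after seeing the data as those with the lowest iris shares, 91 losses were recovered and 39 gains reversed.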
